A study of Mus musculus with 9 samples.

Results

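The genes described here encode the SR proteins, the Tra2 proteins, the Clk kinases, the hnRNP proteins and the numbered Rbm proteins, which include many of the regulators that decide how a pre-mRNA is spliced. Members were taken by gene symbol alone, as Srsf or Sfrs with a number, Tra2a or Tra2b, Clk1 to Clk4, Hnrnp, and Rbm with a number, and 73 of the 24132 symbols in the table matched. They comprised 12 SR genes, 2 Tra2 genes, 4 Clk genes, 18 hnRNP genes and 37 Rbm genes. Of these, 66 had an RPKM (reads scaled by transcript length in kilobases and by mapped reads) of at least 1 in at least 2 libraries and were tested, as were 9787 symbols of the whole table. The 7 that were not tested were Srsf12, Rbm11, Rbm20, Rbm24, Rbm41, Rbm43 and Rbm46.

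RNA was measured by RIPiT-seq, in which RNA that copurifies with a tagged protein through FLAG and then HA immunoprecipitation (IP) of formaldehyde-crosslinked cells is sequenced. The tagged protein was WDR5, a WD40-repeat subunit of the MLL histone methyltransferase complexes, and the question was which RNAs travel with WDR5 through its RNA binding pocket. All libraries came from V6.5 mouse embryonic stem cells (ESCs), a 129/B6 F1 hybrid strain kept without feeders in LIF. Each line carried 1 lentivirus: an empty vector with no tagged WDR5, FLAG-HA human WDR5 of wild type (WT) sequence, or FLAG-HA human WDR5 with the F266A change of phenylalanine to alanine, a construct that also lacks part of the N-terminus. Each line was an isolated clone that kept its own mouse Wdr5, and each gave 1 input library and 2 IP libraries, so 9 libraries were analysed. Nothing states that the 2 IPs of a line came from separate cultures, so p-values measure the spread between these libraries, which may be technical.

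Estimated depth was between 13400000 and 50400000 mapped reads, with the 3 inputs deepest. The 8 ESC markers, among them Pou5f1, Nanog and Sox2, were all above an RPKM of 0.1 in every library and summed to between 417 and 679 RPKM. Of 8 fibroblast markers, 6 were under 0.1 in every library, and the sums lay between 16.8 and 43.0. Wdr5 itself lay between 9.54 and 12.9 RPKM in the WT libraries and between 5.85 and 10.5 in the others, a symbol at which human transgene reads may or may not be counted. Replicate 1 of the F266A IPs stood apart from the other libraries of its line. The 4 Y-linked genes Ddx3y, Uty, Eif2s3y and Kdm5d summed to 0.0383 RPKM in it, against 4.43 in the F266A input and 7.21 in F266A IP replicate 2. Its 12 primitive endoderm markers summed to 22.0 RPKM, against 57.1 and 72.9. In the empty vector and WT libraries this sum lay between 23.1 and 30.3 RPKM. By this sum replicate 1 was close to the other lines, and the F266A input and IP replicate 2 were raised. Single markers differed. Gata4 (0.695 RPKM), Dab2 (0.916), Gata6, Sox7, Col4a1, Col4a2 and Pdgfra were higher in replicate 1 than in every empty vector and WT library. These genes were still below their levels in the F266A input and IP replicate 2. Sparc (12.2) and Lamb1 were lower in replicate 1 than in every empty vector and WT library, and Sox17, Foxa2 and Lama1 lay within their range. Like F266A IP replicate 1, the WT libraries had a low Y-linked sum, at most 0.324 RPKM, whereas the empty vector libraries had at least 7.42. The comparisons that involve the F266A IPs are therefore also given without replicate 1, and the part of these library differences in the results was not tested.

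SR proteins bind exonic enhancer sequences through RNA recognition motifs and recruit the spliceosome through a tail rich in arginine-serine (RS) dipeptides. Clk kinases, like the SRPK kinases, phosphorylate that tail. The Tra2 proteins carry RS domains on both sides of the RNA recognition motif. The hnRNP proteins coat nascent transcripts and often favour exon skipping, and several have glycine-rich tails with arginine-glycine-glycine (RGG) repeats. The Rbm genes share a name and an RNA binding domain rather than a single function: some are spliceosome subunits, Rbm8a belongs to the exon junction complex, and Rbm15 and Rbm15b act in the deposition of N6-methyladenosine. Many SR, Tra2 and hnRNP genes regulate their own mRNA through exons that expose it to nonsense-mediated decay, and Clk1 and Clk4 transcripts are known for introns retained in the nucleus.

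A stretch that encodes part of the family hallmark is shown for 3 of the SR genes higher in the IPs. It is also shown for Hnrnpa2b1, the member that differed between the WT and F266A IPs. Each is a 90-base coding window, 5′ to 3′ on the coding strand, chosen by code as the first window inside 1 exon with the most RS or SR dipeptides, or RGG triplets. Capitals mark the codons that make up those dipeptides or triplets. The bases were read from GENCODE M1 transcripts and were the same in the mm9 genome.
Srsf2, chr11:116713540-116713629, minus strand, coding part of exon 2 of 3: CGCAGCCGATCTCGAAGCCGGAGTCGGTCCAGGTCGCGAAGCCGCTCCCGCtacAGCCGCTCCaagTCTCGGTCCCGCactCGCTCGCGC
Srsf7, chr17:80603482-80603571, minus strand, coding part of exon 6 of 9: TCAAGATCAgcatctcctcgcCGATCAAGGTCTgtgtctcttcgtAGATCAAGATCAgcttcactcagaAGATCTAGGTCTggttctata
Srsf4, chr4:131456205-131456294, plus strand, coding part of exon 6 of 6: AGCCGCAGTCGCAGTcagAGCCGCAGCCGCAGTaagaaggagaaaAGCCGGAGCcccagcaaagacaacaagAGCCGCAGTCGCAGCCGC
Hnrnpa2b1, chr6:51414455-51414544, minus strand, coding part of exon 8 of 11: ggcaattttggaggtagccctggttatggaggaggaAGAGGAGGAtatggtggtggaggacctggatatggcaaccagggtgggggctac
The Srsf2 window holds 23 RS or SR dipeptides in 30 codons, the Srsf4 window 15 and the Srsf7 window 11. The Hnrnpa2b1 window holds 1 of the 4 RGG triplets of its protein.

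The hnRNP family had the highest levels and the Rbm family the lowest. Because RPKM are per length, levels can be set side by side between genes. The median of the mean RPKM over 9 libraries was 17.8 for the 18 tested hnRNP genes, 13.3 for the 11 SR genes, 12.1 for the 2 Tra2 genes, 6.96 for the 4 Clk genes and 4.47 for the 31 Rbm genes. It was 3.07 over all tested genes. Srsf2 had the highest mean of any member, 90.4 RPKM, and 28 of the 73 members had a mean of at least 10.

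Among the SR genes, Srsf2 and Srsf3 had the highest mean levels. Srsf2 encodes an SR protein that binds both exonic enhancers and its own mRNA. It had 52.4, 47.9 and 44.7 RPKM in the empty vector, WT and F266A inputs, and in the IPs 121.2 and 117.6 (empty vector), 116.9 and 94.7 (WT), and 127.7 and 90.6 (F266A). Srsf3, the smallest SR protein and an mRNA export adaptor, had 16.3, 14.5 and 13.9 RPKM in the same inputs and 26.4, 25.9, 24.7, 21.9, 26.7 and 22.4 in the IPs in that order. For both genes the 6 IPs lay above the 3 inputs with no overlap. At the other end, Srsf9, which encodes an SR protein with a short RS tail, lay between 3.25 and 7.85 RPKM, and Srsf12 lay between 0.108 and 0.332.

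Tra2a and Tra2b encode paired activators of exon inclusion. Tra2a had inputs of 12.02 (empty vector), 15.9 (WT) and 9.52 RPKM (F266A), and IPs of 14.6 and 17.6, 15.5 and 17.2, and 14.8 and 13.3. Its WT input lay within the range of the IPs. Tra2b had inputs of 8.17, 7.66 and 6.70 RPKM and IPs of 12.1 and 10.1, 10.7 and 11.05, and 12.2 and 9.03. The lowest Tra2b IP, F266A replicate 2, was still above the highest input.

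The 4 Clk kinases, dual-specificity kinases that phosphorylate SR proteins, were ordered Clk2, Clk1, Clk4 and Clk3 by mean level. Clk1 had inputs of 6.05, 6.38 and 4.66 RPKM and IPs of 9.24 and 9.46 (empty vector), 8.56 and 8.89 (WT), and 8.07 and 8.40 (F266A). Clk4 had inputs of 4.428, 4.201 and 4.233 RPKM and IPs of 6.78 and 7.58, 7.27 and 7.22, and 7.12 and 6.76. For Clk1 and Clk4 the replicate IPs of each line were close and the inputs lay well below them. Clk2 had inputs of 8.61, 7.33 and 7.22 RPKM and IPs of 12.05 and 11.53, 10.9 and 11.2, and 11.4 and 9.16. Clk3 had inputs of 2.66, 3.37 and 3.23 RPKM and IPs of 4.16 and 3.36, 3.81 and 4.04, and 4.61 and 4.40. The lowest Clk3 IP, empty vector replicate 2, fell just under the WT input, so its fractions overlapped.

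**Figure D1:**
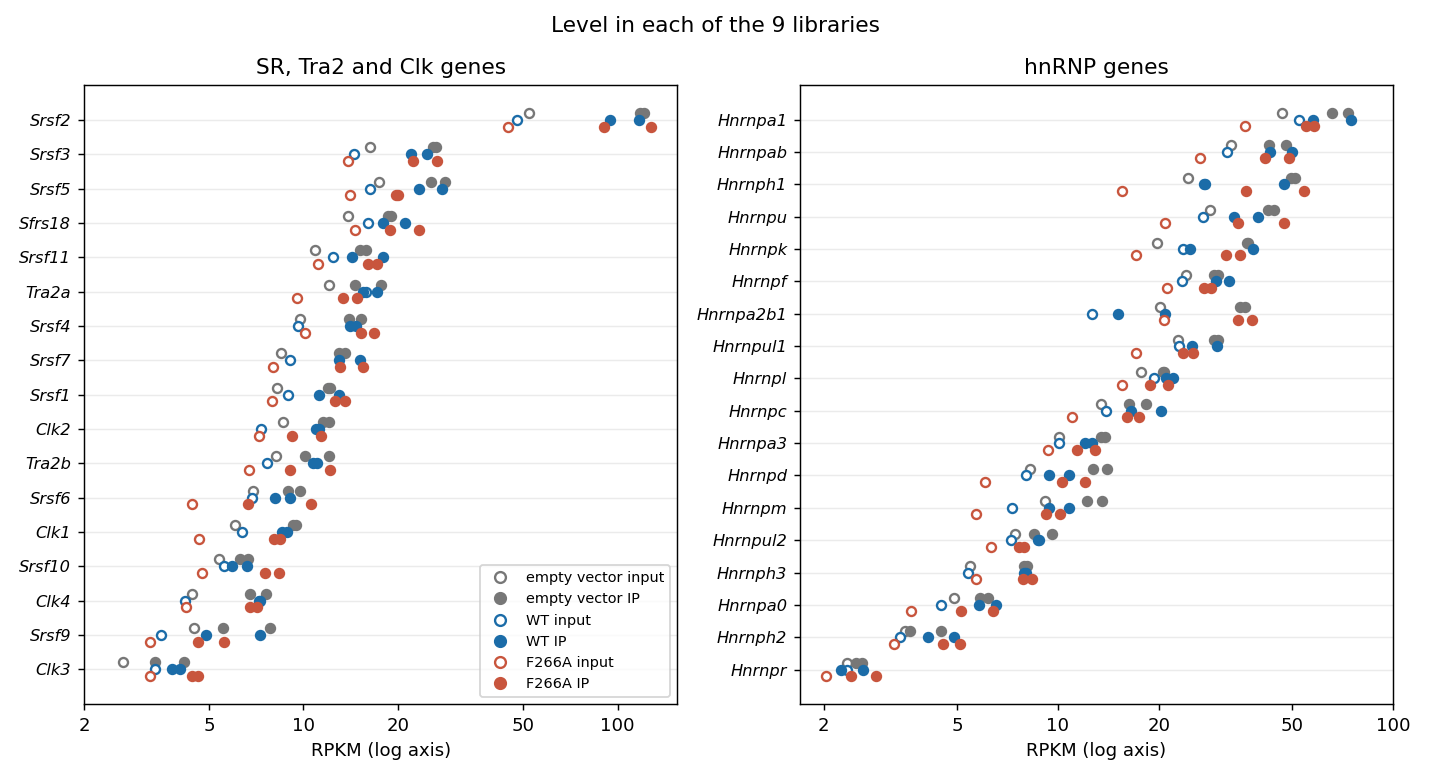
RPKM (log axis) of the 17 tested SR, Tra2 and Clk genes (left) and the 18 tested hnRNP genes (right) in each of the 9 libraries, with open circles for inputs and filled circles for IPs, coloured by line. Srsf2 is set apart at the top with inputs up to 52.4 RPKM and IPs of at least 90.6, and the WT libraries of Hnrnpa2b1 lie to the left of the others in the same fraction.

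In the hnRNP family, Hnrnpa1 and Hnrnpab had the highest mean levels. Hnrnpa1, a splicing repressor with many processed copies in the genome, had inputs of 46.7, 52.5 and 36.2 RPKM and IPs of 73.2 and 65.8, 74.98 and 57.80, and 58.2 and 54.8. How reads that match several copies were assigned is not given in the sources used here. Hnrnpab, which encodes a relative of the Hnrnpd protein, had inputs of 32.8, 31.9 and 26.5 RPKM and IPs of 48.0 and 42.6, 49.9 and 43.0, and 48.8 and 41.6. In both genes every IP was above every input. Among the Rbm genes Rbm25, which encodes a U1 snRNP-associated factor, was highest with inputs of 22.3, 29.0 and 22.8 RPKM and IPs of 35.8 and 34.5, 33.7 and 36.5, and 35.5 and 38.3. Rbm26, which encodes a component of the nuclear poly(A) tail exosome targeting connection, followed with inputs of 17.4, 19.5 and 15.5 RPKM and IPs of 24.2 and 23.5, 21.6 and 30.6, and 21.9 and 22.0. The other tested Rbm genes ranged down to Rbm47, whose 9 values lay between 0.752 and 1.56 RPKM.

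**Figure D2:**
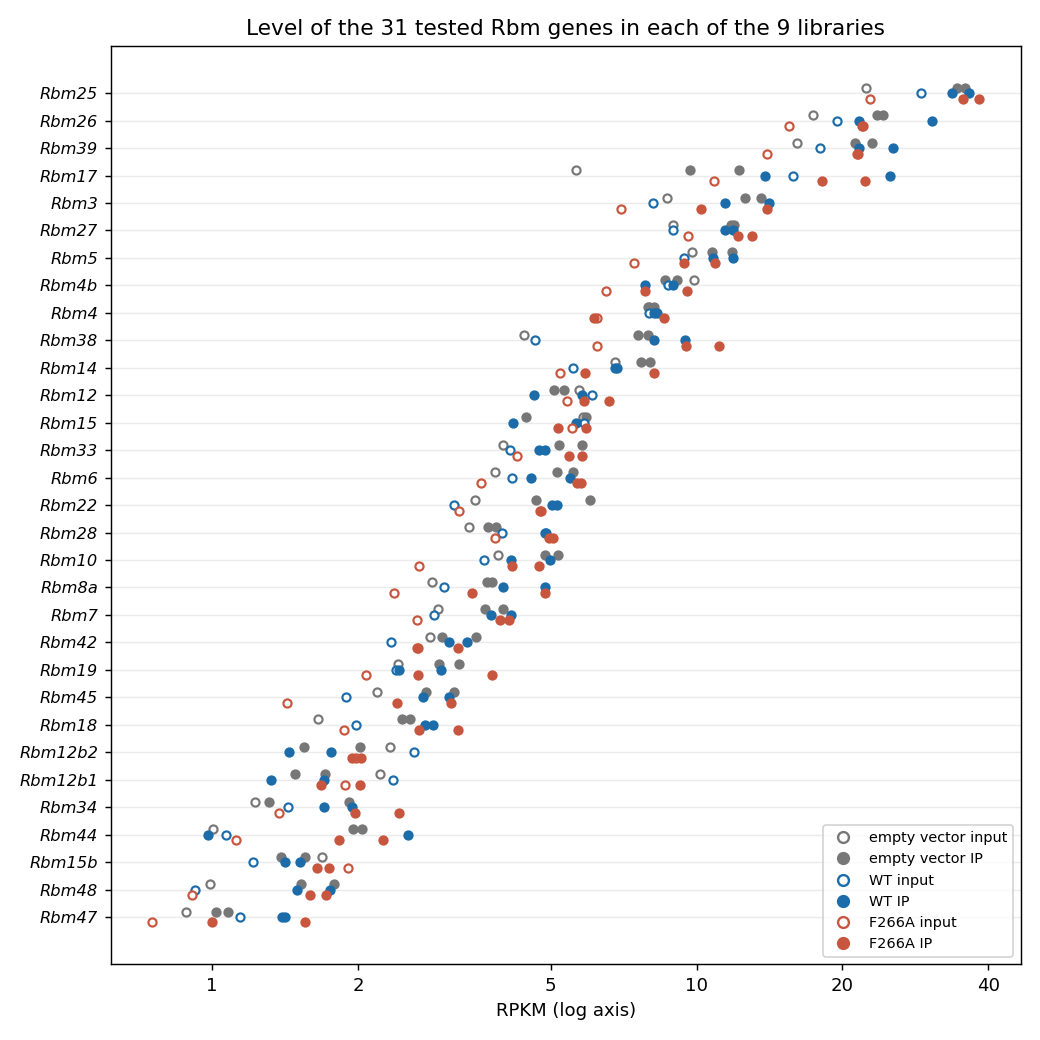
RPKM (log axis) of the 31 tested Rbm genes in each of the 9 libraries, with open circles for inputs, filled circles for IPs, and colour for the line. For most genes the open circles lie to the left of the filled ones, and Rbm12b1, Rbm12b2, Rbm15 and Rbm12 are among the exceptions.

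Most splicing regulator RNAs were higher in the IPs than in the inputs, and so were most RNAs of any kind. In a limma fit of log2(RPKM + 1) with line as a term, 56 of the 66 members were higher in the IPs at an adjusted p under 0.05, against 63.8% of all tested genes, and 1 member was lower, against 0.511%. Without F266A IP replicate 1 these counts were also 56 and 1, with 6537 and 58 of the 9787 tested genes. All 6 IPs lay above all 3 inputs for 45 of the 66 members, against 42.2% of all tested genes. The median IP minus input difference on the log2(RPKM + 1) scale was 0.43 for the members and 0.30 for all tested genes, and 49 members lay above the latter. Most members are well expressed (54 of 66 were at or above the median mean RPKM of all tested genes), and differences on this scale were larger at higher levels. Among genes with a mean RPKM of at least 5, 41 of 45 members were higher, against 84.1% of all 3155 such genes, and 0 were lower, against 0.222%. The empty vector line, which holds no tagged WDR5, had the difference as well: the members' median score, IP minus the line's own input, was 0.40 and 0.38 in its 2 IPs, 0.37 and 0.30 in the WT IPs, and 0.56 and 0.48 in the F266A IPs.

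Because the median gene itself was 0.30 higher in the IPs, the libraries were also centred on the median of the tested genes, and differences then read relative to that gene. On this scale 7 members were higher (10.6% of 66, against 4.67% of all tested genes) and 5 were lower (7.58%, against 4.32%). The 7 were Srsf2, Srsf3, Srsf7 and Srsf4 of the SR family, Clk4 and Clk1, and Rbm38. The 5 were Rbm12b1, Rbm12b2, Rbm15, Rbm12 and Rbm15b. These calls depended on single libraries, over all tested genes as among the members. With all libraries, 457 of the 9787 tested genes were higher and 423 lower. Without the empty vector input 0 members were higher and 0 lower (all tested genes 34 and 8). Without the WT input there were 1 and 0 (47 and 15), and without the F266A input 1 and 2 (100 and 89). Without empty vector IP replicate 1 there were 1 and 2 (133 and 106), and without its replicate 2 there were 2 and 3 (196 and 162). Without WT IP replicate 2 there were 12 and 5 (659 and 480). Leaving out F266A IP replicate 1 gave 7 and 7 (591 and 526). Quantile normalization left 1 member higher (Srsf2, against 2.53% of all tested genes) and 4 lower (Rbm12b1, Rbm12b2, Rbm12 and Rbm15, against 3.76%), with family medians of 0.11 for SR, -0.03 for Tra2, 0.12 for Clk, 0.05 for hnRNP and 0.01 for Rbm.

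The 11 tested SR genes were all called higher, against 63.8% of all tested genes, with a median difference of 0.54. Each had a mean RPKM of at least 5, a level at which 84.1% of all genes were called higher. Srsf2 had the largest difference of any member, 1.18 ± 0.11 (SE; adjusted p = 0.000166 by limma), and ranked 33rd among the 9787 tested genes. After centring the Srsf2 difference was 0.87 ± 0.11 (adjusted p = 0.00426 by limma). Exons of Srsf2 share 293 bases with those of Mfsd11 on the opposite strand, and the library kit is not stated to keep strand. Srsf3 followed at 0.69 ± 0.08 and Srsf7, which encodes an SR protein with a zinc knuckle, at 0.64 ± 0.08. Srsf7 had inputs of 8.46, 9.05 and 8.004 RPKM and IPs of 13.6 and 13.0, 15.1 and 13.0, and 15.5 and 13.0, so the fractions were separated by more than the spread within either. The smallest SR differences were those of Srsf10 (0.34 ± 0.10), Sfrs18 (0.39 ± 0.09) and Srsf11 (0.45 ± 0.09). Srsf10, whose protein acts as a splicing repressor when dephosphorylated, had inputs of 5.36, 5.60 and 4.75 RPKM and IPs of 6.64 and 6.26, 6.63 and 5.94, and 8.34 and 7.56. Sfrs18, now named Pnisr, had inputs of 13.8, 16.1 and 14.6 RPKM and IPs of 18.6 and 19.0, 17.9 and 21.0, and 18.9 and 23.3. In Srsf11, inputs of 10.9, 12.4 and 11.1 RPKM stood beside IPs of 15.2 and 15.9, 14.2 and 17.9, and 17.2 and 16.1. All 3 still had every IP above every input.

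Srsf4, which was called after centring and was named after its values were seen, had inputs of 9.72, 9.62 and 10.1 RPKM and IPs of 15.3 and 14.0, 14.7 and 14.0, and 16.7 and 15.2. Its difference was 0.56 ± 0.07, or 0.25 ± 0.06 after centring (adjusted p = 0.0431 by limma). Its exons share 1551 bases with Gm12992 on the opposite strand. Both Tra2 genes were called higher, against 63.8% of all tested genes. Tra2b differed by 0.48 ± 0.10 and Tra2a by 0.31 ± 0.10, and neither passed after centring. All 4 Clk genes were called higher, against the same 63.8%. Clk4 differed by 0.62 ± 0.07, Clk1 by 0.55 ± 0.07, Clk2 by 0.47 ± 0.08 and Clk3 by 0.31 ± 0.08. After centring, Clk4 (0.31 ± 0.06, adjusted p = 0.0233 by limma) and Clk1 (0.24 ± 0.06, adjusted p = 0.0490 by limma) passed. The median over the 4 kinases was 0.51.

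Of the 18 hnRNP genes, 17 were called higher, against 63.8% of all tested genes, with a median difference of 0.45. After centring 0 passed in either direction, against 4.67% higher and 4.32% lower over all tested genes. Hnrnph1, which encodes a G-tract binding regulator, had the largest difference, 0.95 ± 0.21 (adjusted p = 0.00429 by limma, 0.0885 after centring). Its inputs were 24.5, 27.3 and 15.6 RPKM and its IPs 49.5 and 51.1 (empty vector), 47.3 and 27.4 (WT), and 54.4 and 36.5 (F266A). WT IP replicate 2 of Hnrnph1 was therefore at the level of the WT input, while the other 5 IPs were well above all inputs. Hnrnpk, a KH-domain protein gene, came next at 0.72 ± 0.14 with inputs of 19.8, 23.6 and 17.1 RPKM and IPs of 36.6 and 37.0, 38.2 and 24.8, and 34.9 and 31.8. WT IP replicate 2 was again the lowest IP. Hnrnpa2b1 had a difference of 0.67 ± 0.11, and its values are given with the comparison of lines. The smallest differences were in Hnrnpr (0.12 ± 0.08, adjusted p = 0.173 by limma), Hnrnpl (0.24 ± 0.07) and Hnrnpul2 (0.25 ± 0.07), and all 3 were below the median gene. Hnrnpr, which encodes a relative of Syncrip, had inputs of 2.36, 2.35 and 2.04 RPKM and IPs of 2.50 and 2.60, 2.62 and 2.25, and 2.86 and 2.42, so its fractions overlapped. Hnrnpl, which encodes a CA-repeat binding protein, had inputs of 17.7, 19.3 and 15.5 RPKM and IPs of 20.8 and 20.5, 21.0 and 22.1, and 21.2 and 18.8. The values of Hnrnpul2 were 7.44, 7.22 and 6.32 RPKM in the inputs and 9.62 and 8.49, 8.79 and 8.70, and 7.64 and 7.94 in the IPs.

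The 31 tested Rbm genes spread most widely. In this family 22 were called higher and 1 lower, against 63.8% and 0.511% of all tested genes. The other 8 did not pass, and the median difference was 0.36. Rbm38, which encodes a p53-induced regulator of mRNA stability, led with 0.71 ± 0.08 (adjusted p = 0.000312 by limma), and 0.40 ± 0.08 after centring (adjusted p = 0.0237 by limma). Its inputs were 4.41, 4.63 and 6.24 RPKM and its IPs 7.92 and 7.55, 9.46 and 8.17, and 9.51 and 11.1. Every Rbm38 IP exceeded every input although the F266A input was the highest of the 3. Rbm17, which encodes a U2-associated splicing factor, had a difference of 0.64 ± 0.18, and Rbm3, which encodes a cold-inducible RNA binding protein, 0.61 ± 0.10. Rbm3 had inputs of 8.70, 8.13 and 6.99 RPKM and IPs of 13.6 and 12.6, 14.1 and 11.4, and 14.0 and 10.2.

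At the other end of the Rbm family were Rbm12b1 and Rbm12b2, neighbouring copies of one gene that can share reads. Rbm12b1 had inputs of 2.22, 2.36 and 1.88 RPKM and IPs of 1.48 and 1.71, 1.70 and 1.32, and 1.68 and 2.02. Its difference, -0.25 ± 0.10 (adjusted p = 0.0418 by limma), was the single significant fall, and the call was lost when any 1 library was left out other than the F266A input or F266A IP replicate 2, with adjusted p between 0.0503 and 0.249 by limma. Rbm12b2 had inputs of 2.33, 2.61 and 1.98 RPKM and IPs of 1.55 and 2.02, 1.76 and 1.44, and 1.94 and 2.03, a difference of -0.25 ± 0.10 (adjusted p = 0.0523 by limma), which passed without F266A IP replicate 1 (adjusted p = 0.0476 by limma). In both genes the empty vector and WT IPs lay below their inputs while the F266A IPs were level with theirs. Rbm15, which encodes an adaptor of the m6A methyltransferase complex, had inputs of 5.82, 5.86 and 5.53 RPKM and IPs of 4.44 and 5.92, 4.18 and 5.64, and 5.17 and 5.90. The Rbm15 difference was -0.13 ± 0.11 (adjusted p = 0.305 by limma), and -0.44 ± 0.10 after centring (adjusted p = 0.0337 by limma). Rbm12, which shares 2210 exon bases with Cpne1 on the same strand, and Rbm15b, a paralogue of Rbm15, had differences of -0.05 ± 0.09 and -0.03 ± 0.08 (adjusted p = 0.661 and 0.765 by limma). After centring these were -0.36 ± 0.08 and -0.34 ± 0.08 (adjusted p = 0.0326 and 0.0354 by limma).

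**Figure D3:**
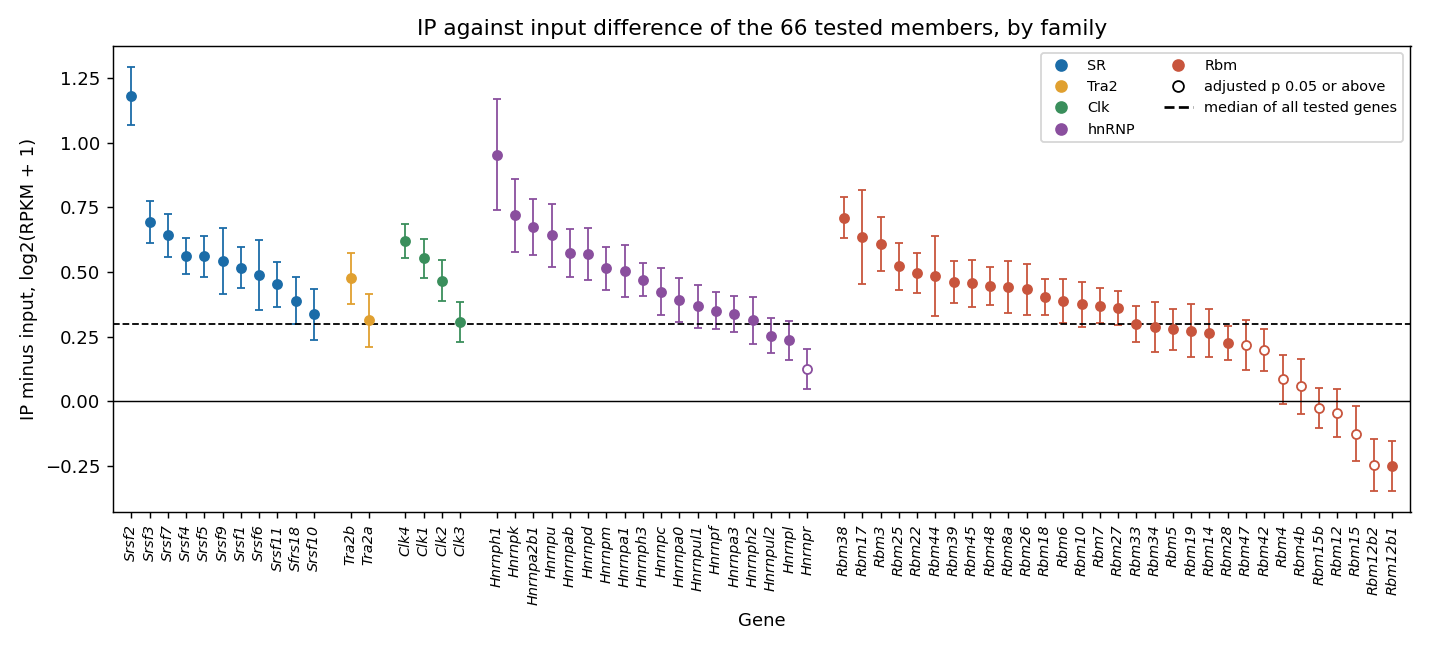
IP minus input difference on the log2(RPKM + 1) scale for each of the 66 tested members, sorted within family, from the limma fit with line as a term. Bars are the standard error, filled circles passed an adjusted p under 0.05, and the dashed line is the median of all 9787 tested genes (0.30). The SR, Tra2 and Clk genes all lie at or above the dashed line, Clk3 and Tra2a close to it and Srsf2 highest at 1.18, and Rbm genes alone reach below 0.

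The differences were also set beside gene structure, which the symbol rule did not use, and this feature was chosen after the values were seen. The length of a gene's longest coding exon in GENCODE M1 was known for 61 of the 66 tested members and for 8563 tested genes. Over all of these genes the median IP minus input difference on the log2(RPKM + 1) scale fell with each longer class. It was 0.37 for the 2459 genes whose longest coding exon had up to 200 bases, 0.30 for 3244 genes up to 400, 0.28 for 1461 up to 800, 0.21 for 896 up to 1500, 0.17 for 242 up to 2000, and 0.11 for 261 above 2000. Among genes with a mean RPKM of at least 5, the first and last of these medians were 0.47 (992 genes) and 0.14 (97 genes). The 2 members above 2000 bases were Rbm15 (2866) and Rbm12 (2976), which had the lowest differences of the 61. The members' own medians did not fall with each class. They were 0.48, 0.47, 0.25 and 0.39 in the classes up to 200, 400, 800 and 1500 bases. No exon length was at hand for Rbm12b1, Rbm12b2 or Rbm15b, which were also among the lowest members, or for Rbm4 or Rbm48.

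Spearman's rho between longest coding exon and difference was -0.44 over the 61 members and -0.31 over the 8563 genes, and rho between mean log2 level and difference was 0.51 and 0.46. With a pseudocount of 0.1 the values for exon length were -0.41 and -0.29, and those for level 0.28 and 0.18. These are descriptions across genes, which share the 9 libraries and are not independent replicates. Exon length did not order all members: Srsf4 (805 bases), Hnrnpf (1245), Hnrnpa0 (915) and Rbm44 (1496) had long coding exons and differences of 0.56, 0.35, 0.39 and 0.48. The number of RS dipeptides, in capitals in the SR sequences above, had a rho of 0.08 with the difference over the 61 members. Over 8547 tested genes that rho was -0.23. Total exon length had a rho of -0.08 over the 61 members and -0.30 over the 8563 genes, the latter close to that of the longest coding exon. The number of coding exons had a rho of 0.0006 over the 61 members and -0.10 over the 8563 genes.

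**Figure D4:**
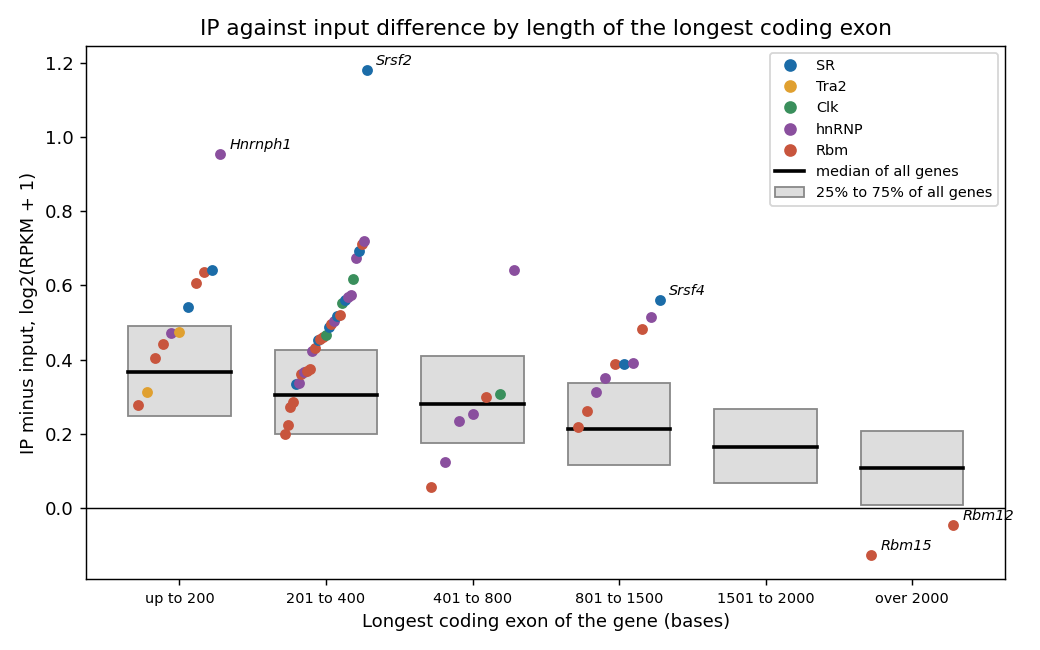
IP minus input difference on the log2(RPKM + 1) scale by class of longest coding exon (bases). Grey boxes span the middle 50% of all tested genes and black lines their medians, which step down from 0.37 to 0.11. Coloured points are the 61 members with a known exon length, spread sideways for legibility, and Rbm12 and Rbm15 are the 2 points in the last class.

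Between lines, 1 member differed in its IPs. In the WT IPs against the F266A IPs, Hnrnpa2b1 passed at an adjusted p under 0.05, 1 of 66 members against 1.16% of all tested genes. Hnrnpa2b1 encodes an hnRNP protein of the A/B class that binds nuclear transcripts and m6A-marked RNA. It had 20.2 RPKM in the empty vector input, 12.7 in the WT input and 20.7 in the F266A input. Its IPs held 36.0 and 34.9 RPKM (empty vector), 20.9 and 15.1 (WT), and 37.9 and 34.5 (F266A). The WT libraries were the lowest of their fraction, in the input as in the IPs. The WT minus F266A difference of the IPs was -0.99 ± 0.16 (adjusted p = 0.0388 by limma) and the WT minus empty vector difference was -0.96 ± 0.16 (adjusted p = 0.234 by limma). Without F266A IP replicate 1 the WT minus F266A difference was -0.92 ± 0.20 (adjusted p = 0.0710 by limma). The call was lost when any of the 6 IPs was left out, with differences between -1.21 and -0.77. Against each line's own input, the mean IP scores were 0.78 (empty vector), 0.46 (WT) and 0.78 (F266A), and the input-subtracted WT minus F266A difference was -0.32 ± 0.28 (adjusted p = 0.9998 by limma).

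In the same comparison the next largest differences were those of Srsf5 and Hnrnph1. Srsf5, which encodes an SR protein induced early in cell growth, had inputs of 17.3, 16.3 and 14.0 RPKM and IPs of 25.4 and 28.1 (empty vector), 23.3 and 27.7 (WT), and 19.78 and 20.02 (F266A). Its WT minus F266A difference was 0.34 ± 0.13 (adjusted p = 0.268 by limma) and its F266A minus empty vector difference was -0.41 ± 0.13 (adjusted p = 0.129 by limma). Without F266A IP replicate 1 these were 0.33 ± 0.16 and -0.40 ± 0.16 (adjusted p = 0.331 and 0.194 by limma). The F266A IPs of Srsf5 lay below the other 4, as did the F266A input below the other inputs. Hnrnph1 had a WT minus F266A difference of -0.30 ± 0.26 (adjusted p = 0.663 by limma), which became 0.08 without WT IP replicate 2 and -0.02 without F266A IP replicate 1.

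The WT IPs and empty vector IPs did not differ at an adjusted p under 0.05 for any member or any other gene (0 of 66 against 0.0%), with 5 members (7.58%) and 557 genes (5.69%) at an unadjusted p under 0.05. The 3 members with the largest size of difference were Hnrnpa2b1, Rbm17 (0.72 ± 0.25, adjusted p = 0.798 by limma) and Hnrnph1 (-0.47 ± 0.26, adjusted p = 0.881 by limma). The F266A IPs and empty vector IPs differed for 0 of 66 members, against 4.55% of all tested genes. At an unadjusted p under 0.05 there were 5 members, or 7.58%, against 20.4% of all tested genes. The 3 largest sizes of difference here were those of Rbm17, Srsf5 and Hnrnpm. Rbm17 had inputs of 5.62 (empty vector), 15.8 (WT) and 10.8 RPKM (F266A), and IPs of 12.3 and 9.71, 25.1 and 13.9, and 18.2 and 22.2. The empty vector libraries of Rbm17 were the lowest of their fraction, and the F266A minus empty vector difference was 0.83 ± 0.25 (adjusted p = 0.110 by limma), or 0.96 ± 0.31 without F266A IP replicate 1 (adjusted p = 0.116 by limma). Hnrnpm, whose exons share 1169 bases with March2, had inputs of 9.13, 7.29 and 5.70 RPKM and IPs of 13.6 and 12.2, 10.8 and 9.43, and 10.1 and 9.20. Its difference was -0.38 ± 0.13 (adjusted p = 0.141 by limma), or -0.44 ± 0.15 without F266A IP replicate 1 (adjusted p = 0.126 by limma).

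**Figure D5:**
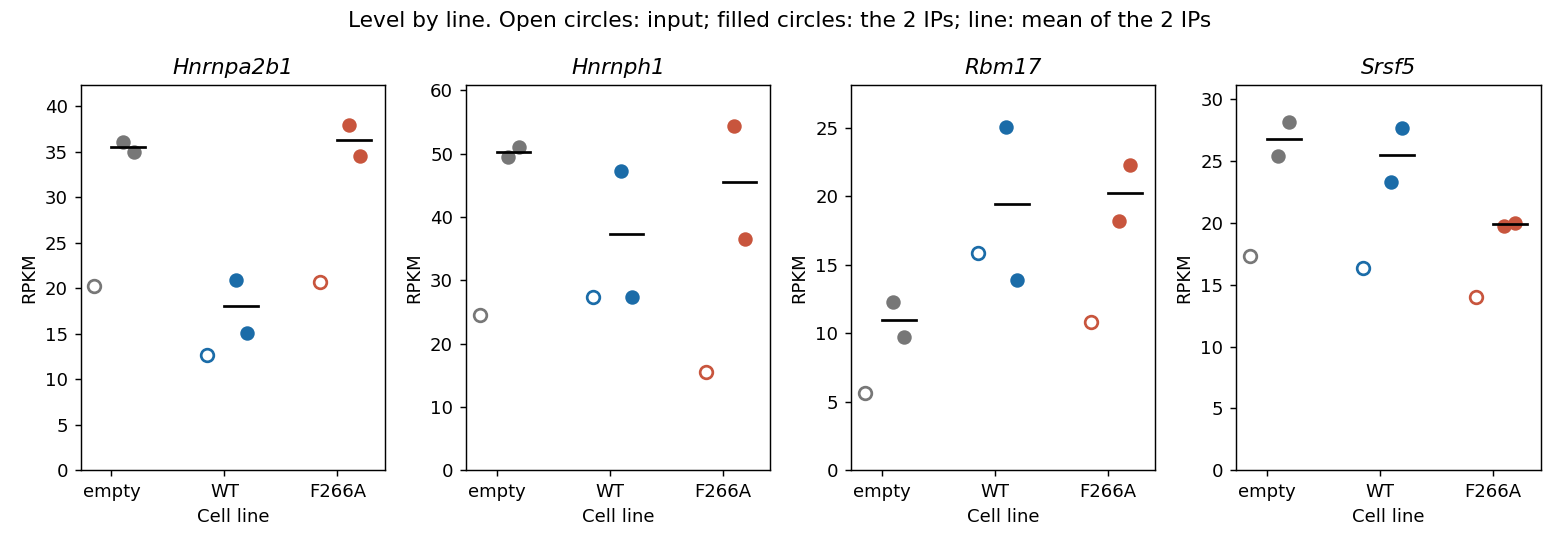
RPKM of Hnrnpa2b1, Hnrnph1, Rbm17 and Srsf5 in each line, with an open circle for the input, filled circles for the 2 IPs and a black line for the mean of the IPs. The WT line is lowest for Hnrnpa2b1, and the empty vector line for Rbm17, in the input and in the mean of the IPs alike, and WT IP replicate 2 of Hnrnph1, at 27.4 RPKM, lies at the level of the WT input.

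The inputs, with 1 library per line and so no test, already differed between lines at several members. On the log2(RPKM + 1) scale, 2 members differed by at least 0.5 between the WT and empty vector inputs, Rbm17 (1.34) and Hnrnpa2b1 (-0.63), against 1.82% of all tested genes. Between the F266A and empty vector inputs 5 members did so, namely Hnrnph1, Hnrnpm, Rbm17, Rbm4b and Srsf6, against 13.2%. Between the F266A and WT inputs it was 6, namely Hnrnpa1, Hnrnpa2b1, Hnrnph1, Rbm17, Srsf6 and Tra2a, against 11.9%. The F266A input was the lowest of the 3 for 47 of 66 members, against 58.9% of all tested genes, and for 33 after centring, against 41.5%. The members' median difference was -0.16 for F266A minus empty vector and 0.00 for WT minus empty vector, and that of all tested genes was -0.12 and 0.00. Input RPKM are scaled by mapped reads and give a gene's share of a library rather than its total RNA. Fewer cells of a kind, less RNA per cell and a change in other RNAs cannot be told apart here.

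When each line's input was subtracted from its IPs, 0 of 66 members differed between any of the 3 pairs of lines, and 0.0% of all tested genes did. At an unadjusted p under 0.05 there were 2 members for WT against F266A (Hnrnph1 and Srsf10, or 3.03% against 2.65%), 0 for WT against empty vector (against 1.77%) and 0 for F266A against empty vector (against 2.48%). The largest size of difference was that of Hnrnph1, -1.07 ± 0.46 for WT minus F266A (adjusted p = 0.9998 by limma), with mean scores of 0.39 in WT, 1.46 in F266A and 1.01 in the empty vector line. Each input is a single library, assumed in this fit to vary like the IPs, and the resulting standard errors are wide. For Hnrnpa2b1 the WT line was below both other lines in the inputs as in the IPs. For Rbm17 the empty vector line was below both others in the inputs as in the IPs, whereas the WT minus F266A difference was 0.51 in the inputs and -0.10 in the IPs. Without F266A IP replicate 1, which leaves 1 F266A IP, the Hnrnph1 difference for WT minus F266A was -0.79.

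The study's own definition of an enriched RNA asked that both WT scores be above 0 and above all 4 scores of the F266A and empty vector lines. It was met by 4 of the 73 members, or 5.48%, against 4.79% of all 24132 rows, and by 3 of the 66 tested members, against 5.29% of tested genes, with no test. They were Clk4, Rbm42, Rbm15b and Srsf12. Clk4 had WT scores of 0.67 and 0.66 with a highest control score of 0.66, so the margin of 0.00027 was smaller than the gap of 0.0093 between the 2 WT replicates. Rbm42, which encodes an RNA binding protein of stress granules and shares 1650 exon bases with Haus5, had WT scores of 0.38 and 0.29 and a highest control score of 0.24. Its RPKM were 2.82, 2.34 and 2.64 in the inputs and 3.51 and 2.99, 3.36 and 3.09, and 3.22 and 2.65 in the IPs, so its WT IPs lay within the range of the other IPs and its WT input was the lowest. Rbm15b had WT scores of 0.12 and 0.18 and a highest control score of -0.07. Its inputs were 1.68, 1.21 and 1.91 RPKM and its IPs 1.55 and 1.39, 1.41 and 1.52, and 1.64 and 1.74, and again the WT input was the lowest and the WT IPs were not above the others. Srsf12 met the rule at a mean of 0.216 RPKM, which rests on few reads. With the mean of the 3 inputs in place of each line's own, 0 members met the rule, against 4.37% of all rows. After centring 3 did, against 2.79% of all rows, and of these Rbm42 alone was among the 4. At a pseudocount of 0.1, 3 members did, against 5.26% of all rows, and Srsf12 no longer did. Without F266A IP replicate 1, a change that can only keep or add members, 6 met the rule, against 8.19% of all rows.

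Genes of the wider splicing machinery were counted in the IP against input comparison as well. Of 22 tested SR kinases and SR-related proteins 20 were higher and 0 lower (median 0.31), of 28 snRNP and core spliceosome proteins 24 and 0 (median 0.37), of 29 other splicing regulators 24 and 0 (median 0.39), and of 10 nonsense-mediated decay factors 9 and 0 (median 0.31). The median of all tested genes was 0.30 on the same scale, and 63.8% of them were higher. The largest differences in each list were those of Luc7l3 (0.85), a U1 snRNP-associated protein gene, Snrpe (0.80), a core Sm protein gene, Sfpq (0.60), a paraspeckle protein gene, and Upf3a (0.53). After centring, 2 SR-related genes (Luc7l3 and Rnps1), 2 core spliceosome genes and 1 other regulator (Sfpq) remained higher, and 1 gene was lower in each list but the core spliceosome, against 4.67% higher and 4.32% lower over all tested genes. None of the genes in the 4 lists passed in the IPs of any pair of lines. Of all tested genes, 1.16% passed for WT against F266A, 0.0% for WT against empty vector and 4.55% for F266A against empty vector.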

How the data were processed

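RIPiT-seq was analysed in 9 mouse ESC libraries, grouped by the line, fraction and replicate number in their deposited labels. Alignment by the authors used TopHat 1.1.3 and the mm9 genome, and the deposited values are RPKM for each gene symbol from a script of their own, so they are already scaled by transcript length and mapped reads. RPKM also depend on the share of a library's reads that lie on genes, which was not measured here. Its part in the difference between inputs and IPs was not tested. RPKM are not counts and were not given to a count test. The smallest step of RPKM times exon length gave an estimated depth between 13400000 and 50400000 mapped reads. A gene with 1 kb of exons and an RPKM of 1 then has 13.4 reads in the shallowest library, and this covers counting error only.

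Log2(RPKM + 1) of the 9787 symbols that reached an RPKM of 1 in 2 or more libraries was fitted with limma 3.58.1 (lmFit, contrasts, eBayes with trend), with Benjamini-Hochberg adjustment over all of them and a threshold of 0.05. Such differences understate the change of low genes. IP against input used line plus fraction, and comparisons of lines used 1 coefficient per line and fraction. The F266A IP replicate 1 was kept in these fits. A score is the log2 value of an IP minus that of its line's input. Symbols were matched to GENCODE M1 (mm9), with 68 of 73 members found, and 21 of these share exon bases with another gene. Names came from the RefSeq table of GRCm38.p6. The procedure was tested on simulated data.

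Members, gene lists and tests were chosen with earlier results of these data known. Genes named with values were the Tra2 and Clk genes, the 2 highest members of the SR, hnRNP and Rbm families, their 3 largest and 3 smallest IP minus input differences, the 3 largest sizes in each comparison of IPs, and members that met the study's rule, plus those said to be named after their values were seen. Rbm12, Srsf4, Rbm4b, Hnrnpf, Hnrnpa0 and Rbm44 were also named after their values were seen. Alternatives were another pseudocount, other filters, quantile normalization, median centring, no trend, a replicate block and each library left out. The alternatives to the centred IP against input comparison, and the study's rule without single control IPs, were chosen after seeing the data.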

Additional observations from a re-analysis of the deposited data

Results flagged for a closer look

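Rbm15b, Rbm12 and Rbm4b had IP scores of opposite sign in both replicates of 2 lines, which was not tested as a difference. Of all tested genes 7.46% had such a pattern in at least 1 pair of lines, and of the members 4.55%. The WT mean score of Rbm15b exceeded that of the empty vector line by 0.27 and that of F266A by 0.27. The F266A mean score of Rbm12 exceeded that of the empty vector line by 0.29 and that of WT by 0.37. For Rbm4b, which encodes a splicing and translation regulator, the F266A mean score exceeded that of the empty vector line by 0.50. With F266A IP replicate 2 alone, these F266A gaps were 0.22 and 0.30 for Rbm12 and 0.37 for Rbm4b, and the WT to F266A gap of Rbm15b was 0.24. The RPKM of Rbm4b were 9.86, 8.71 and 6.50 in the empty vector, WT and F266A inputs, and 8.61 and 9.13, 7.83 and 8.94, and 9.57 and 7.81 in the IPs. Each of these scores rests on 1 input library per line.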

How the results depend on the processing

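The 56 members higher in IP than in input lay between 42 and 58 when 1 library was left out, and became 7 after centring and 1 after quantile normalization. Over all tested genes the 6247 higher lay between 3767 and 6537, and became 457 and 248. The 1 member lower became 0 without a filter, 0 among genes of mean RPKM 5 or more, 5 after centring, 4 after quantile normalization and 2 with 1 coefficient per line and fraction, and lay between 0 and 2 with 1 library left out. Over all tested genes the 50 lower became 95, 7, 423, 368 and 46 in these settings, and lay between 12 and 68. Relative to the median gene, the 7 members higher became 4 with a pseudocount of 0.1, 3 among genes of mean RPKM 5 or more, and between 0 and 12 with 1 library left out, and the 5 lower lay between 0 and 7. Over all tested genes the 457 higher became 311 and 194 in these settings, and between 34 and 659 with 1 library left out. The 423 lower over all tested genes then lay between 8 and 526. The 1 member called between the WT and F266A IPs became 0 without a filter and 0 with any IP left out. In the other 5 comparisons of lines 0 members were called under every alternative that was run. The 4 members that met the study's rule became 0 with the mean of the 3 inputs, against 4.37% of all rows. They became 3 after centring (1 of the 4 among them, Rbm42), against 2.79%, and 3 with a pseudocount of 0.1, against 5.26%. With 1 IP left out the count lay between 4 and 9, and the share of all rows between 5.91% and 13.9%. Leaving out an IP can only keep or add members under this rule, so the lower end was fixed in advance. The cause of the changes in this paragraph was not tested.

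The IP against input difference changed sign in 14 members after centring and in 22 after quantile normalization. After centring these included Clk3 (-0.0025), Hnrnpl (-0.074), Hnrnpr (-0.19), Hnrnpul2 (-0.057), Rbm42 (-0.11) and Rbm4b (-0.25), and the other 8 lay between -0.22 and -0.011. After quantile normalization they included Clk3 (-0.025), Hnrnpl (-0.22), Hnrnpr (-0.17), Hnrnpul2 (-0.14), Rbm26 (-0.035), Rbm42 (-0.12), Rbm4b (-0.36), Sfrs18 (-0.057), Srsf10 (-0.030) and Tra2a (-0.13), and the other 12 lay between -0.31 and -0.018. With 1 library left out, the sign turned for Rbm12 (between -0.157 and 0.029), Rbm15b (between -0.12 and 0.020) and Rbm4b (between -0.095 and 0.156), and in the WT against F266A IPs for Hnrnph1 (between -0.68 and 0.082).

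Whether replicate numbers pair the IPs is not stated, and the main fits took them as unpaired. The correlation over genes of the replicate 1 minus replicate 2 difference was 0.26 for WT and F266A. It was 0.11 for WT and empty vector and 0.01 for F266A and empty vector. These values cannot exclude a pairing. The replicate block gave 57 members higher and 1 lower, with 6493 and 57 of the 9787 tested genes. It gave 1 member between the WT and F266A IPs, with 154 of all tested genes. Relative to the median gene it gave 11 members higher, with 680 of all tested genes against 457 without the block. In the other comparisons of lines it gave 0 members. Over all tested genes it gave 607 for F266A against empty vector IPs and 7 for WT against empty vector IPs. Subtracting the mean of the 3 inputs from every line was not run as a test, because it equals the comparison of the IPs alone.

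With 2 IPs and 1 input per line, small differences between lines could not be detected, and members whose RPKM is under 1 have few reads behind them.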
